A study of Mus musculus with 16 samples.

Results

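The lipases and lipid droplet coat proteins of fat were described across 3 adipose depots of 12-week-old mice. The set was made up of 10 genes, chosen by their symbols in the deposited FPKM table. They were the lipases Pnpla2, Lipe and Mgll, the lipase partners Abhd5 and G0s2, the perilipins Plin1, Plin2, Plin4 and Plin5, and the droplet fusion protein gene Cidec. All 10 were found among the 38371 gene IDs of the table, of which 21110 were protein-coding, and all 10 passed the minimum of 1 FPKM in every comparison. FPKM, fragments per kilobase of transcript scaled to the mapped fragments of the library, is a level per length, so levels of different genes can be set side by side.

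RNA was sequenced from brown fat (BAT), inguinal white fat (iWAT) and epididymal white fat (eWAT) of fat-specific HuR knockout mice and their controls. The knockout animals (HuR-FKO) carried adiponectin-Cre and floxed Elavl1, the gene of HuR, on both chromosomes (AdipoQ-Cre;HuRf/f). The controls (Ctrl) were HuRf/f littermates, so both groups carried the floxed alleles and differed by the Cre. The adiponectin-Cre transgene acts in adipocytes only, and the other cells of a depot keep the gene. There were 2 HuR-FKO and 2 Ctrl libraries of BAT, 3 and 3 of iWAT, and 3 and 3 of eWAT, 16 in all. RNA of 3 mice was pooled for each library, so the spread between libraries is a spread between pools.

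Fat cells store triglyceride in droplets whose surface is covered by perilipins. On stimulation, ATGL (the product of Pnpla2) removes the first fatty acid, hormone-sensitive lipase (Lipe) the next, and monoacylglycerol lipase (Mgll) the last. In white fat PLIN1 holds the ATGL activator CGI-58 (Abhd5) at the droplet until protein kinase A releases it, and G0S2 blocks ATGL directly. In tissues that burn fat, such as brown fat, heart and oxidative muscle, PLIN5 ties droplets to mitochondria.

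HuR is an RNA-binding protein known for binding AU-rich stretches of 3′ untranslated regions, so one such site is shown for each of 3 genes of the lipolytic step itself. The sequences were read from the GRCm38 (mm10) genome at the longest 3′ untranslated region that GENCODE vM21 annotates, and the capitals mark the pentamer ATTTA. They lie at chr7:141460034-141460062 on the plus strand (Pnpla2), chr7:25379650-25379678 on the minus strand (Lipe) and chr9:122379694-122379722 on the plus strand (Abhd5), each inside that untranslated region.
Pnpla2: gtgtgaagaattATTTAtttttgccaaag
Lipe: taaataaaagttATTTAactaggcctttt
Abhd5: gcagctttccacATTTAaaccaaccagtg
The pentamer stood in the 3′ untranslated region of 6 of the 10 genes and of 69.0% of 12237 expressed genes. Abhd5 held 7 copies, Mgll 2, Plin1 2, and Pnpla2, Lipe and Cidec 1 each, whereas G0s2, Plin2, Plin4 and Plin5 held 0. Only Pnpla2 had the pentamer inside the longer TTATTTATT, a nonamer that 16.8% of expressed genes held. A match is a description of letters and not a binding site.

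The level of Elavl1 itself did not separate the genotype labels. It was 8.98 and 8.17 FPKM in the BAT libraries labelled HuR-FKO, against 8.34 and 7.36 in those labelled Ctrl, 16.5, 15.3 and 13.9 against 13.2, 15.8 and 12.4 in iWAT, and 13.9, 15.4 and 13.3 against 13.6, 13.8 and 12.2 in eWAT. The values overlapped in each depot, and no library labelled HuR-FKO lay below all Ctrl libraries of its depot. The paper reported a lack of HuR in BAT, iWAT and eWAT of HuR-FKO mice against control littermates, by real-time PCR and western blot. The table has 1 value per gene, so the deleted and the retained exons cannot be told apart in it. HuR-FKO and Ctrl below therefore mean the libraries with these labels.

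The BAT libraries stood apart from the white fat libraries in more than their tissue. Mitochondrial genes took 37.7% to 44.5% of the protein-coding FPKM in BAT, 19.7% to 27.3% in iWAT and 12.1% to 16.8% in eWAT, which lowers all other genes of BAT on the FPKM scale. The summed FPKM of all gene IDs was 719408 to 796184 in BAT and 3460320 to 12928400 in the white depots, while that of protein-coding genes was 578833 to 676811 in all 16. Whether BAT was prepared or sequenced apart is not given in the sources used here, so depot and any such difference cannot be told apart. Depth, estimated from the steps between low values, was 9.4 to 18.3 M fragments per library. Adipocyte markers, 8 genes from Adipoq to Slc2a4, summed to 13588 to 14976 FPKM in BAT, 23383 to 33510 in iWAT and 30944 to 47923 in eWAT. Fat was thus present in every library, but markers found in every depot do not identify the depot. In bulk tissue, fewer adipocytes and less RNA per adipocyte cannot be told apart.

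Of the 10 genes, 9 were among the more abundant protein-coding transcripts in every depot, with group ranks of 1147 or better. Cidec, which fuses droplets into the single large droplet of a white fat cell, was the most abundant in eWAT, with rank 22 in HuR-FKO eWAT and 27 in Ctrl eWAT of 21110 genes. Pnpla2 led in BAT and iWAT, with rank 35 in HuR-FKO and 49 in Ctrl in BAT, 43 and 48 in iWAT, and 34 and 36 in eWAT. Plin5 was the exception. Its rank was 846 in HuR-FKO BAT and 852 in Ctrl BAT, 5127 and 7143 in iWAT, and 7231 and 7705 in eWAT.

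**Figure D1:**
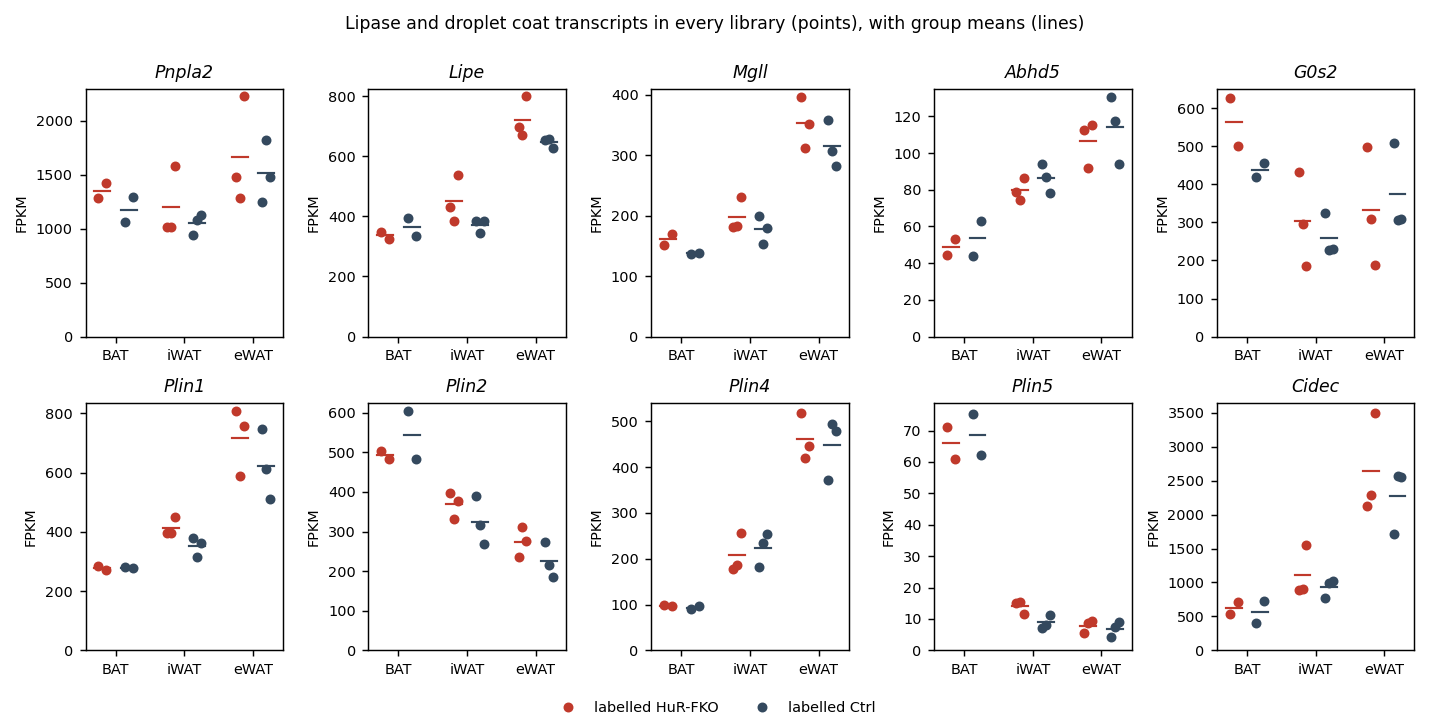
FPKM of the 10 genes (vertical axes, from 0) in each of 16 libraries (points) by depot, with the group mean as a line, red for libraries labelled HuR-FKO and dark blue for Ctrl. Plin5 lies between 61.1 and 75.3 in BAT and at 15.6 or below in both white depots, and the points of the genotypes mix in most panels.

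Plin5, the perilipin of oxidative tissues, differed most between depots. It stood at 71.0 and 61.1 FPKM in HuR-FKO BAT and at 75.3 and 62.2 in Ctrl BAT. In iWAT it was at 15.1, 15.6 and 11.7 in HuR-FKO and 7.15, 8.08 and 11.4 in Ctrl libraries. In eWAT it was at 5.68, 8.64 and 9.38 in HuR-FKO and 4.39, 7.56 and 8.92 in Ctrl. Every BAT library was thus above every white fat library by a wide margin. On the log2(FPKM + 1) scale BAT exceeded eWAT by 2.94 ± 0.20 (SE) in HuR-FKO libraries and by 3.17 ± 0.26 in Ctrl libraries, which in Ctrl is a 9.01-fold difference with a 95% interval of 5.97 to 13.6. Over iWAT the excess was 2.15 ± 0.20 in HuR-FKO and 2.84 ± 0.26 in Ctrl. All 4 differences passed the test, with adjusted p-values of 2.96e-06, 8.76e-06, 1.54e-05 and 1.46e-05 (limma, Benjamini-Hochberg over all genes tested).

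Plin2, the coat of newly formed and small droplets in most cell types, was ordered in the same way. It had 502 and 482 FPKM in HuR-FKO BAT, and 604 and 483 in Ctrl BAT. The iWAT libraries had 397, 333 and 378 in HuR-FKO and 390.3, 316 and 269.6 in Ctrl, and the eWAT libraries 237, 312 and 275 in HuR-FKO and 273, 216 and 186 in Ctrl. All 4 BAT libraries lay above all 12 white fat libraries. Plin2 was higher in BAT than in eWAT by 0.85 in HuR-FKO (adjusted p = 4.26e-04) and 1.28 in Ctrl libraries (adjusted p = 3.95e-04), and higher than in iWAT by 0.42 (adjusted p = 0.0201) and 0.75 (adjusted p = 0.00826). The BAT over iWAT calls rested on single libraries. Without Ctrl BAT replicate 1 the adjusted p was 0.0667, and in HuR-FKO it was 0.0995 without BAT replicate 1, 0.0645 without BAT replicate 2 and 0.0675 without iWAT replicate 2 (limma).

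Plin4, which coats nascent droplets in white adipocytes, ran the other way. Its BAT libraries had 98.1 and 97.4 FPKM in HuR-FKO and 89.2 and 96.2 in Ctrl. The iWAT libraries had 177, 187 and 257 in HuR-FKO and 181, 234 and 254 in Ctrl, and the eWAT libraries 519, 419 and 445 in HuR-FKO and 373, 494 and 478 in Ctrl. The depots did not overlap, with BAT lowest and eWAT highest in both sets of libraries. BAT minus eWAT was -2.22 ± 0.17 on the log2 scale in HuR-FKO (adjusted p = 4.98e-06) and -2.25 ± 0.18 in Ctrl (adjusted p = 6.32e-06, limma). The BAT minus iWAT difference was -1.06 ± 0.17 in HuR-FKO and -1.24 ± 0.18 in Ctrl.

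Cidec had 534 and 715 FPKM in HuR-FKO BAT, 399 and 728 in Ctrl BAT, 894, 901 and 1552 in HuR-FKO iWAT, and 766, 987 and 1027 in Ctrl iWAT. It reached 2129, 2286 and 3491 in HuR-FKO eWAT and 1708, 2572 and 2555 in Ctrl eWAT. The 3 depots again did not overlap, although the Ctrl BAT libraries (399 and 728) differed from each other about as much as BAT from iWAT. BAT minus eWAT was -2.05 ± 0.29 in HuR-FKO (adjusted p = 1.91e-04) and -2.05 ± 0.28 in Ctrl (adjusted p = 1.44e-04). BAT minus iWAT was -0.80 (adjusted p = 0.0308) in HuR-FKO and -0.77 (adjusted p = 0.0298) in Ctrl, and Cidec in Ctrl was no longer called without Ctrl BAT replicate 1, at -0.34 (adjusted p = 0.299), or without iWAT replicate 2 or 3 (adjusted p = 0.0761 and 0.0804). In HuR-FKO it was not called without BAT replicate 1, at -0.59 (adjusted p = 0.198, limma), or without iWAT replicate 3, at -0.54 (adjusted p = 0.0737).

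Plin1, the coat of the large droplet of adipocytes and the gatekeeper of lipolysis, was also highest in eWAT. It had 285 and 271 FPKM in HuR-FKO BAT, 280.3 and 277 in Ctrl BAT, 395, 395 and 450.5 in HuR-FKO iWAT, 381, 315 and 364 in Ctrl iWAT, 809, 589 and 756 in HuR-FKO eWAT, and 749, 611 and 511 in Ctrl eWAT. The depots did not overlap. BAT minus eWAT was -1.35 ± 0.15 in HuR-FKO and -1.14 ± 0.17 in Ctrl, both called, and iWAT minus eWAT was -0.78 ± 0.13 and -0.81 ± 0.15, both called.

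Of the lipases, Pnpla2 had 1282 and 1419 FPKM in HuR-FKO BAT, 1058 and 1288 in Ctrl BAT, 1013, 1017 and 1581 in HuR-FKO iWAT, 940.2, 1078 and 1126 in Ctrl iWAT, 1481, 1287 and 2227 in HuR-FKO eWAT, and 1247, 1822 and 1478 in Ctrl eWAT. BAT overlapped both white depots. No BAT difference of Pnpla2 passed the test on the FPKM values as deposited, with intervals on the log2 scale of -0.86 to 0.33 against eWAT and -0.40 to 0.79 against iWAT in HuR-FKO, and -0.78 to 0.06 and -0.26 to 0.58 in Ctrl. When libraries were scaled by the median ratio of their genes to a common reference, Pnpla2 was called higher in BAT than in iWAT, by 0.92 in HuR-FKO (adjusted p = 0.0229) and 0.85 in Ctrl (adjusted p = 0.00586, limma). Without Ctrl eWAT replicate 1 it was called lower in Ctrl BAT than in Ctrl eWAT (-0.49, adjusted p = 0.0401).

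Lipe had 349 and 324 FPKM in HuR-FKO BAT, 394 and 334 in Ctrl BAT, 431, 385 and 539 in HuR-FKO iWAT, 384, 344 and 385 in Ctrl iWAT, 696, 669 and 799.9 in HuR-FKO eWAT, and 654, 658 and 629 in Ctrl eWAT. All 6 eWAT libraries were above the other 10. Mgll had 152 and 169.9 FPKM in HuR-FKO BAT, 137 and 139 in Ctrl BAT, 182, 183 and 231 in HuR-FKO iWAT, 200.04, 152 and 180.3 in Ctrl iWAT, 397, 312 and 351 in HuR-FKO eWAT, and 358, 308 and 283 in Ctrl eWAT. It too had every eWAT library above all others. Lower levels in BAT than in eWAT were called for Lipe at -1.10 in HuR-FKO and -0.83 in Ctrl, and for Mgll at -1.12 and -1.19.

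Abhd5, the activator, had 44.5 and 53.3 FPKM in HuR-FKO BAT, 44.0 and 63.0 in Ctrl BAT, 78.8, 74.1 and 86.4 in HuR-FKO iWAT, 93.9, 86.9 and 78.0 in Ctrl iWAT, 113, 91.9 and 115 in HuR-FKO eWAT, and 131, 118 and 94.3 in Ctrl eWAT. The 4 BAT libraries were all below the white ones. The inhibitor G0s2 had 628 and 500.3 FPKM in HuR-FKO BAT, 418 and 455 in Ctrl BAT, 432, 296 and 185 in HuR-FKO iWAT, 324, 228 and 229 in Ctrl iWAT, 498, 309 and 189 in HuR-FKO eWAT, and 508, 306 and 309 in Ctrl eWAT. Its white fat libraries were widely spread, and 3 of the 12 were above the lower Ctrl BAT library. Abhd5 in BAT minus iWAT was -0.70 in both sets (adjusted p = 0.00116 in HuR-FKO and 0.00680 in Ctrl), and G0s2 was 0.96 in HuR-FKO (adjusted p = 0.0558) and 0.76 in Ctrl (adjusted p = 0.0159, limma). Without Ctrl BAT replicate 1, the Ctrl difference of Abhd5 was not called (-0.44, adjusted p = 0.0686), and that of G0s2 was not called without Ctrl BAT replicate 2 (adjusted p = 0.0745) or Ctrl iWAT replicate 2 (adjusted p = 0.0520). The Ctrl call of G0s2 was also lost with no minimum FPKM (adjusted p = 0.0693) and with all 16 libraries in 1 fit (adjusted p = 0.0749, limma). The larger HuR-FKO difference of G0s2 was called under median-ratio scaling (1.68, adjusted p = 0.00509), with equal sums of nuclear genes (1.32, adjusted p = 0.0186), with all 16 libraries in 1 fit (adjusted p = 0.0293), and without iWAT replicate 1 (1.26, adjusted p = 0.0191) or eWAT replicate 1 or 3 (adjusted p = 0.0336 and 0.0302, limma). The sets of libraries were thus not shown to differ in G0s2.

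Counted together, BAT minus eWAT called 8 of the 10 genes in HuR-FKO and 8 in Ctrl libraries, Plin2 and Plin5 higher and Lipe, Mgll, Abhd5, Plin1, Plin4 and Cidec lower in each. Of all genes tested, 80.6% were called in HuR-FKO and 76.9% in Ctrl, so a share of 8 in 10 is near the background. BAT minus iWAT called 7 of the genes in HuR-FKO and 6 in Ctrl, 5 of them in both (Plin2 and Plin5 higher, and Abhd5, Plin4 and Cidec lower), against 78.7% and 75.9% of all genes. The added calls were Lipe (-0.41) and Plin1 (-0.57), lower in HuR-FKO, and G0s2, higher in Ctrl. Where Lipe was called in HuR-FKO, the call was lost without either BAT library (adjusted p = 0.0853 and 0.167) or without iWAT replicate 1 or 3, or eWAT replicate 1 (adjusted p = 0.0567, 0.0850 and 0.0508, limma).

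The size and sign of a BAT difference depended on how libraries were scaled. Over all genes tested, the median log2 difference was -0.75 for BAT minus eWAT and -0.72 for BAT minus iWAT in HuR-FKO, and -0.69 and -0.71 in Ctrl. Relative to that median Plin2, Plin5, Pnpla2 and G0s2 lay high, Plin4 and Cidec lay low against eWAT, and Lipe and Mgll lay above it against iWAT. Of the calls over all genes, 11.9% were higher in BAT than in eWAT for HuR-FKO and 12.8% for Ctrl, and scaling by the median ratio to a common reference made these 43.2% and 42.7%. Against iWAT the shares were 11.3% and 12.1%, and 41.7% and 40.4% after that scaling. Plin2 and Plin5 stayed higher and Plin4 and Cidec lower in BAT than in eWAT in both sets under that scaling and under equal sums of nuclear genes. Under median-ratio scaling the lower levels against eWAT were no longer called for Lipe (-0.32), Mgll (-0.35) and Abhd5 (-0.34) in HuR-FKO and for Lipe (-0.12), Abhd5 (-0.39) and Plin1 (-0.43) in Ctrl, while G0s2 was called higher (1.64 and 0.97). Against iWAT, median-ratio scaling turned Lipe (0.31 in HuR-FKO and 0.65 in Ctrl), Mgll (0.43 and 0.32) and Plin1 (0.15 and 0.35) to the higher side. It also brought Abhd5 (0.01 and -0.02) and Cidec (-0.08 and -0.08) near 0, with no call for either, and neither was called under equal nuclear sums. Plin4 in HuR-FKO was at -0.34 under median-ratio scaling, also without a call.

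Between the white depots, where the all-gene median was -0.01 in HuR-FKO and 0.01 in Ctrl, scaling mattered less. iWAT minus eWAT called 8 of the 10 genes in HuR-FKO, against 30.2% of all genes tested, and 6 in Ctrl, against 28.5%. With the replicate number as a block, 7 were called in Ctrl, with Plin2 added, and the share of all genes called in that fit is not printed. Cidec (-1.25 in HuR-FKO and -1.28 in Ctrl), Plin4 (-1.17 and -1.01), Mgll (-0.83 and -0.83), Plin1 (-0.78 and -0.81) and Lipe (-0.69 and -0.80) were lower in iWAT in both sets. All 5 kept that sign under both other scalings. Over all 10 genes the median was -0.57 in HuR-FKO and -0.66 in Ctrl.

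Of the other 5 genes, 4 were called in 1 set of libraries only and G0s2 in neither (-0.10 in HuR-FKO and -0.50 in Ctrl). Plin5 (0.78, adjusted p = 0.0110) and Plin2 (0.43, adjusted p = 0.0283) were higher and Abhd5 (-0.41, adjusted p = 0.0319) lower in HuR-FKO iWAT than in HuR-FKO eWAT. Without HuR-FKO eWAT replicate 1 or 3, or iWAT replicate 1, neither Plin2 (adjusted p = 0.0939, 0.0627 and 0.0970) nor Abhd5 (adjusted p = 0.0987, 0.0914 and 0.0828) was called, nor was Plin2 without iWAT replicate 3 (adjusted p = 0.0545) or Abhd5 without iWAT replicate 2 (adjusted p = 0.117). Pnpla2 was lower in Ctrl iWAT at -0.52 (adjusted p = 0.0460), and this call was lost in 5 of the 6 fits that left out 1 white fat library of Ctrl, with adjusted p-values of 0.0729 to 0.166, and under both other scalings. Of its 16 alternative fits 5 kept the call, among them that with the replicate number as a block (-0.52, adjusted p = 0.0244, limma). The Ctrl difference of Plin2, 0.53 with an adjusted p of 0.0576, was called with the replicate number as a block (0.53, adjusted p = 0.00765, limma). No test compared the sets of libraries with each other in this contrast beyond the interaction given further on.

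**Figure D2:**
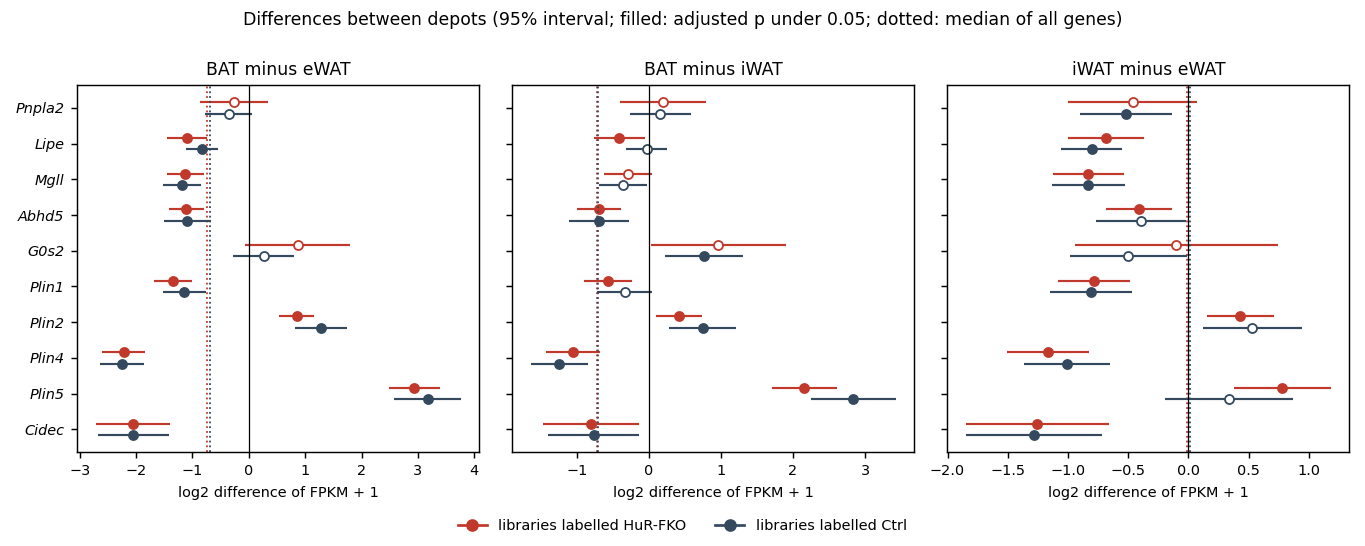
Log2 differences of FPKM + 1 between depots (horizontal axes) for the 10 genes, with 95% intervals, red for libraries labelled HuR-FKO and dark blue for Ctrl. Filled points had an adjusted p under 0.05 and dotted lines mark the median of all genes, -0.75 and -0.69 for BAT minus eWAT. Plin5 lies far to the right and Plin4 and Cidec to the left in that panel.

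Because these scalings move all genes of a library together, the make-up of the perilipin pool within a library was also read, which does not depend on them. The pool was the summed FPKM of Plin1, Plin2, Plin4, Plin5 and Plin3, a widely expressed perilipin that is not in the set. Plin2 made up 49.8% ± 0.0903 of it in HuR-FKO BAT and 52.2% ± 3.9 in Ctrl BAT (SD, n = 2 each), 35.7% ± 3.0 and 34.5% ± 5.2 in iWAT, and 18.6% ± 4.1 and 16.7% ± 2.0 in eWAT (SD, n = 3 each). Plin1 ran opposite, with 28.1% ± 0.145 and 26.9% ± 2.0 in BAT, 39.9% ± 1.1 and 37.5% ± 2.3 in iWAT, and 47.8% ± 4.0 and 46.2% ± 5.2 in eWAT. The lead thus passed from Plin2 in BAT to Plin1 in eWAT. In iWAT the means of these genes were close, with Plin1 ahead, but single libraries differed in their order. Plin2 led in HuR-FKO iWAT replicate 1 (39.02% against 38.83%) and in Ctrl iWAT replicates 1 (39.41% against 38.46%) and 2 (35.08% against 34.94%). Plin1 led in the other iWAT libraries.

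Plin4 took 9.89% ± 0.25 of the pool in HuR-FKO BAT and 8.98% ± 1.23 in Ctrl BAT, 19.9% ± 2.7 and 23.9% ± 4.9 in iWAT, and 30.8% ± 1.5 and 33.7% ± 6.9 in eWAT. Plin5 took 6.67% ± 0.51 and 6.61% ± 0.34 in BAT, 1.38% ± 0.30 and 0.949% ± 0.256 in iWAT, and 0.535% ± 0.158 and 0.529% ± 0.213 in eWAT. For each of these 4 genes, the 4 BAT libraries did not overlap the 12 white fat libraries. Plin5 ranged from 6.31% to 7.03% in BAT against 0.305% to 1.61% in white fat, and Plin2 from 49.5% to 54.9% against 14.7% to 39.4%. The pool itself summed to 989 ± 30.1 FPKM in HuR-FKO BAT and 1038 ± 86.7 in Ctrl BAT, 1037 ± 85.02 and 940.4 ± 45.8 in iWAT, and 1495 ± 123.2 and 1342 ± 109 in eWAT.

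**Figure D3:**
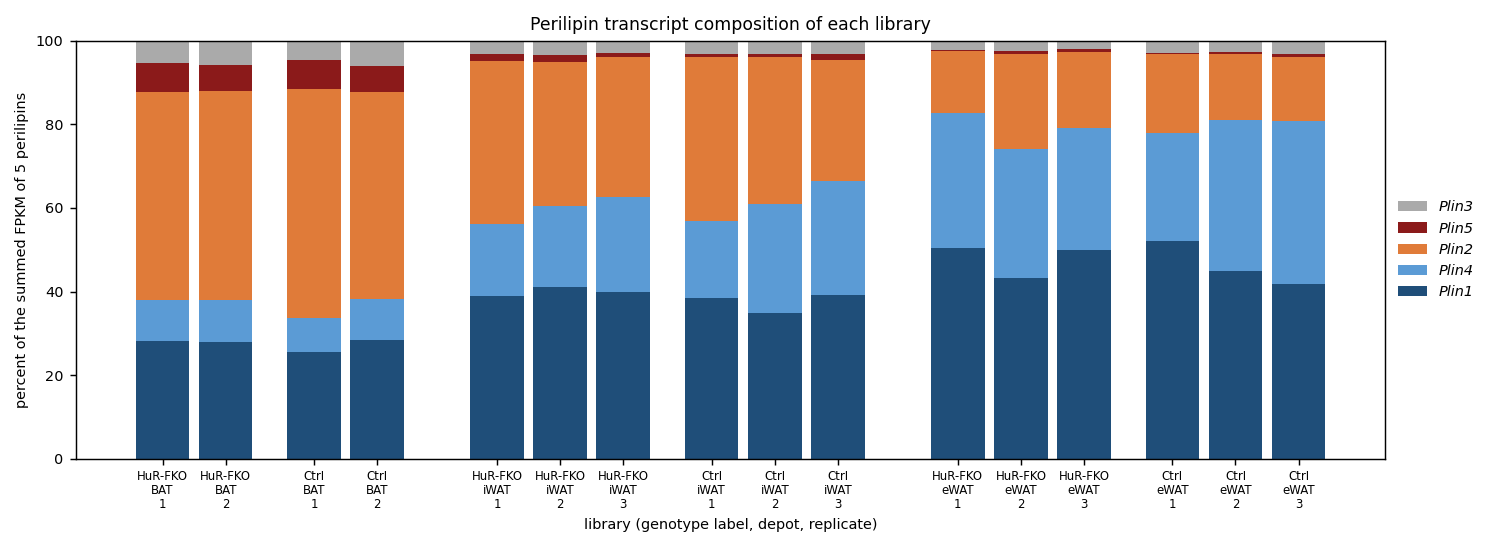
Share of each of 5 perilipins in their summed FPKM (vertical axis, percent) for each of 16 libraries (1 bar each), grouped by depot and genotype label. The Plin2 share lies at 49.5% to 54.9% in BAT, 28.99% to 39.4% in iWAT and 14.7% to 22.9% in eWAT.

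The partners of ATGL were set against Pnpla2 in the same way, as ratios within a library. Abhd5 over Pnpla2 was 0.0347 and 0.0376 in HuR-FKO BAT and 0.0416 and 0.0489 in Ctrl BAT. It was 0.0778, 0.0729 and 0.0547 in HuR-FKO iWAT and 0.0999, 0.0806 and 0.0693 in Ctrl iWAT, and 0.0760, 0.0714 and 0.0517 in HuR-FKO eWAT and 0.105, 0.0646 and 0.0638 in Ctrl eWAT. The 4 BAT libraries lay below all 12 white fat libraries, with a median of 0.0396 against 0.0721. Mgll over Pnpla2 likewise ranged from 0.108 to 0.129 in BAT against 0.141 to 0.287 in white fat. Lipe over Pnpla2 overlapped, at 0.228 to 0.372 in BAT against 0.319 to 0.524.

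G0s2 over Pnpla2 was 0.490 and 0.353 in HuR-FKO BAT and 0.395 and 0.354 in Ctrl BAT. In iWAT it was 0.426, 0.291 and 0.117 in HuR-FKO and 0.344, 0.211 and 0.203 in Ctrl, and in eWAT 0.336, 0.240 and 0.0848 in HuR-FKO and 0.407, 0.168 and 0.209 in Ctrl. BAT and white fat overlapped, since 2 white libraries reached the BAT range. BAT thus had the lowest ratios of the activator beside ratios of the inhibitor at the upper end of the range.

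**Figure D4:**
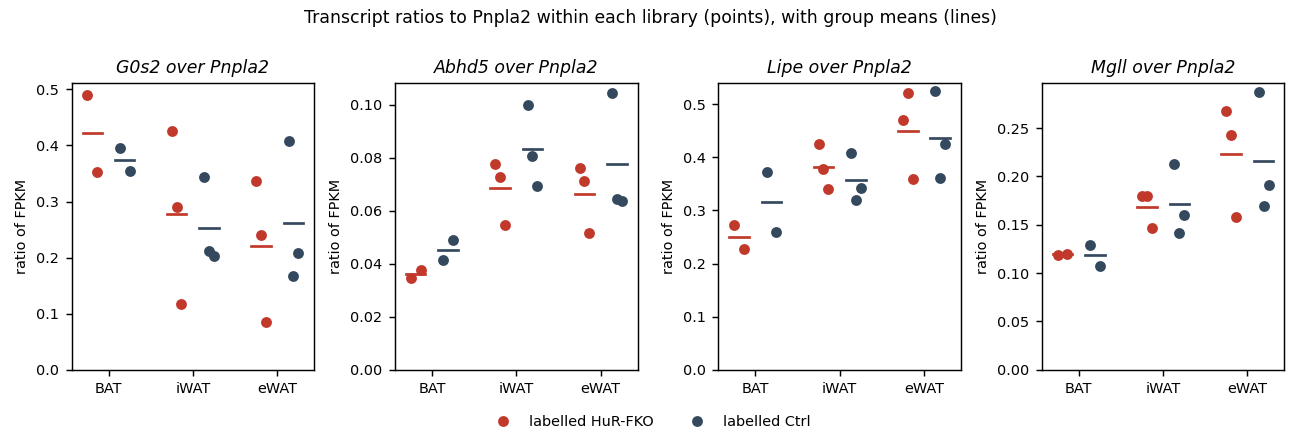
FPKM of G0s2, Abhd5, Lipe and Mgll over that of Pnpla2 within each library (points; vertical axes from 0) by depot, with group means as lines, red for libraries labelled HuR-FKO and dark blue for Ctrl. Abhd5 over Pnpla2 is 0.0347 to 0.0489 in BAT and 0.0517 or above in white fat.

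Within several white fat groups, the library with the highest or lowest Pnpla2 was at the other end for G0s2. HuR-FKO eWAT replicate 3 had the highest Pnpla2 (2227) and Cidec (3491) and the lowest G0s2 (189) of its group, and HuR-FKO iWAT replicate 3 had 1581, 1552 and 185, again the highest, the highest and the lowest. Ctrl eWAT replicate 1 had the lowest Pnpla2 (1247) and Cidec (1708) and the highest G0s2 (508), and Ctrl iWAT replicate 1 had 940.2, 766 and 324 in the same pattern. Not every library followed this pattern. In Ctrl BAT the library with the higher Pnpla2 (1288 against 1058) also had the higher G0s2 (455 against 418), and in HuR-FKO eWAT replicate 1 exceeded replicate 2 in both genes. After group means were removed, Pearson's r over the 16 libraries was -0.78 for G0s2 with Pnpla2 and 0.89 for Cidec with Pnpla2 on the log2(FPKM + 1) scale. Each library gives both values of a pair and libraries of 1 number may share mice, so these are descriptions. The large replicate spread of G0s2 (a coefficient of variation of 46.9% in HuR-FKO eWAT and 40.6% in HuR-FKO iWAT) limited what the genotype comparisons could show for it.

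Markers of other cells differed between depots beside these genes. Brown adipocyte markers (7 genes from Ucp1 to Ppargc1a) summed to 4594 to 5082 FPKM in HuR-FKO BAT and 4160 to 5601 in Ctrl BAT, 502 to 972 and 213 to 329 in iWAT, and 25.9 to 35.9 and 12.9 to 19.7 in eWAT. Ucp1 was under 1 FPKM in all 6 eWAT libraries, and Elovl3 was listed at 0 in 2 of them. Skeletal muscle markers, 11 genes, summed to 1431 to 1547 in HuR-FKO BAT and 2509 to 4306 in Ctrl BAT, 27.0 to 700.4 and 401 to 2932 in iWAT, and 17.9 to 27.8 and 19.9 to 21.3 in eWAT. Immune and stromal markers shifted as well. Macrophage markers summed to 66.7 to 148 FPKM in HuR-FKO BAT and 46.8 to 141 in Ctrl BAT, 1119 to 1293 and 1114 to 1702 in iWAT, and 688 to 928 and 805 to 942 in eWAT. Fibroblast and progenitor markers summed to 128 to 253 in HuR-FKO BAT and 128 to 422 in Ctrl BAT, 1563 to 2440 and 2384 to 3028 in iWAT, and 1241 to 1450 and 1427 to 1704 in eWAT. Lymphocyte markers were at 214 to 383 in HuR-FKO iWAT and 148 to 391 in Ctrl iWAT, against 12.9 to 18.5 and 12.5 to 16.7 in eWAT, and mesothelial markers at 105 to 159 and 135 to 195 in eWAT, against 2.43 or below elsewhere. The part of these cells in the depot differences of the 10 genes, the iWAT minus eWAT ones included, was not tested. Oxidative muscle also makes Plin5, and the part of either cell type in the Plin5 differences was not tested.

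The genotype comparison asks whether loss of HuR in adipocytes changes these transcripts. No gene of the set was called in any depot. Of all genes tested, 0% were called in BAT, 0.0394% in iWAT and 0.0406% in eWAT (limma, adjusted p under 0.05). At an unadjusted p under 0.05 there were 316 higher and 739 lower genes in BAT, 470 and 702 in iWAT, and 472 and 471 in eWAT, and of the 10 genes only Plin5 in iWAT was among them.

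Plin5 in iWAT, at 15.1, 15.6 and 11.7 FPKM in HuR-FKO and 7.15, 8.08 and 11.4 in Ctrl, did not overlap between the labels, although HuR-FKO replicate 3 and Ctrl replicate 3 were close. The log2 difference was 0.63 ± 0.18 (SE; 95% interval 0.20 to 1.05), a 1.55-fold difference on the FPKM + 1 scale, with an adjusted p of 0.381 over 12705 genes (limma). It was 0.50 to 0.80 when single libraries were left out. In BAT the same difference was -0.05 (interval -0.45 to 0.34), and in eWAT it was 0.18 (-0.39 to 0.76).

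Of the 7 brown adipocyte markers, 6 were higher in all 3 HuR-FKO iWAT libraries than in all 3 Ctrl ones. Ucp1, the uncoupler of brown fat, was at 139, 182 and 101 FPKM in HuR-FKO and 25.3, 8.33 and 21.6 in Ctrl iWAT, and Ppargc1a overlapped. Fibroblast and progenitor markers summed to 1563 to 2440 in HuR-FKO iWAT and 2384 to 3028 in Ctrl iWAT. Red cell markers, at 2078 to 4046 in HuR-FKO iWAT and 1502 to 1911 in Ctrl iWAT, did not overlap, nor did the mitochondrial share of protein-coding FPKM, at 23.9% to 27.3% and 19.7% to 23.3%. Red cell markers also did not overlap in eWAT (4534 to 6060 against 2497 to 3522) or BAT (2120 to 2481 against 1577 to 1703). Nor did the mitochondrial share in eWAT (14.2% to 16.8% against 12.1% to 13.9%) or BAT (43.7% to 44.5% against 37.7% to 39.2%). These shifts were thus not particular to iWAT. The part of any of these levels in the Plin5 difference was not tested.

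Beside Plin5, 5 other genes of the set did not overlap between labels in 1 depot each. In iWAT the genes without overlap were Plin1 (395, 395 and 450.5 against 381, 315 and 364) and Plin5, where 14.5% of all genes did not overlap. In eWAT it was Lipe (696, 669 and 799.9 against 654, 658 and 629), where 13.1% did not. In BAT, with 2 libraries each, these were Mgll, G0s2 and Plin4, where 41.4% did not. Their log2 differences were 0.23 (-0.05 to 0.50) for Plin1, 0.15 (-0.10 to 0.41) for Lipe, 0.22 (-0.09 to 0.54) for Mgll, 0.36 (-0.03 to 0.75) for G0s2 and 0.08 (-0.23 to 0.38) for Plin4, none of them called.

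For the first lipase, Pnpla2, the difference was 0.21 (95% interval -0.17 to 0.59) in BAT, 0.17 (-0.28 to 0.63) in iWAT and 0.11 (-0.41 to 0.64) in eWAT. Lipe differed by -0.11 (-0.46 to 0.24) in BAT and 0.27 (-0.07 to 0.61) in iWAT. Abhd5 differed by -0.11 (-0.64 to 0.42) in BAT, -0.11 (-0.37 to 0.15) in iWAT and -0.09 (-0.43 to 0.24) in eWAT. G0s2 differed by 0.16 (-0.53 to 0.86) in iWAT and -0.24 (-1.02 to 0.55) in eWAT. All of these intervals include 0 and extend to both sides, so neither a difference nor equal levels were shown.

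Among the coats, Plin2 differed by -0.13 (-0.52 to 0.25) in BAT, 0.19 (-0.17 to 0.55) in iWAT and 0.30 (-0.08 to 0.67) in eWAT. Plin1 differed by -0.003 (-0.30 to 0.29) in BAT and 0.21 (-0.20 to 0.61) in eWAT, and Plin4 by -0.11 (-0.54 to 0.32) in iWAT and 0.05 (-0.28 to 0.38) in eWAT. Cidec differed by 0.20 in BAT, 0.23 in iWAT and 0.20 in eWAT, with the widest interval in BAT (-0.59 to 0.98). Of the 10 differences, 5 were positive in BAT, 8 in iWAT and 8 in eWAT, with medians of 0.04, 0.18 and 0.16, beside -0.05, -0.04 and -0.01 over all genes.

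**Figure D5:**
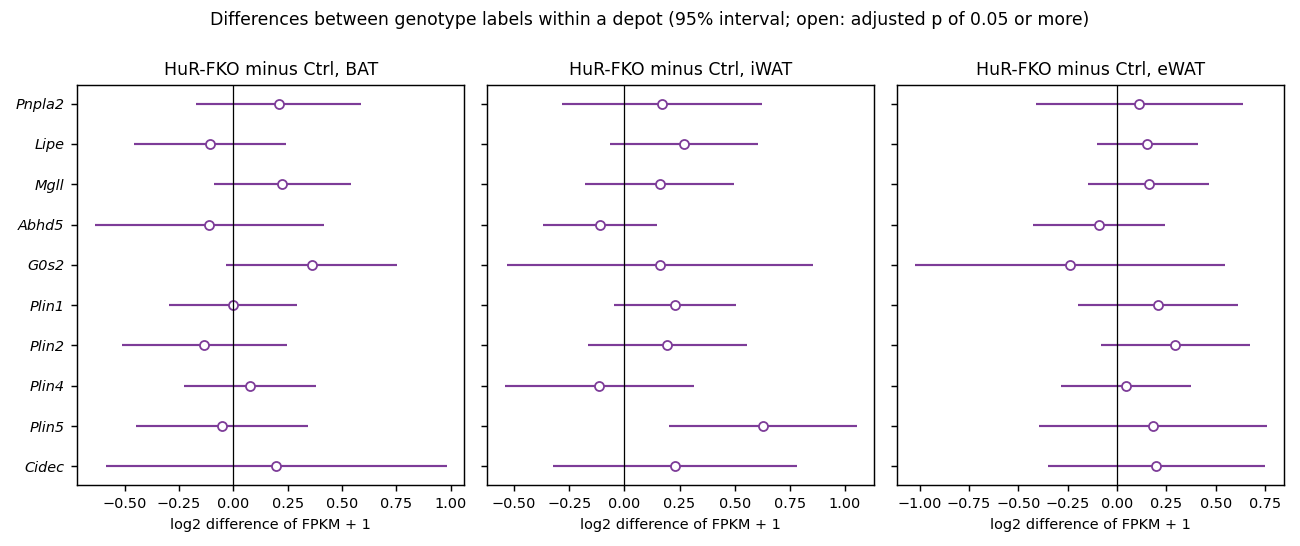
Log2 differences of FPKM + 1, HuR-FKO minus Ctrl libraries (horizontal axes), for the 10 genes in BAT, iWAT and eWAT, with 95% intervals. All 30 points are open, since none had an adjusted p under 0.05, and Plin5 in iWAT (0.63) lies farthest from 0.

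Whether the genotype difference itself varied between depots was tested as an interaction. The genotype effect in iWAT minus that in eWAT called 0 of the 10 genes and 0.00764% of all genes. For Plin5 it was 0.45 (-0.30 to 1.19), for G0s2 0.40 (-0.70 to 1.51) and for the other 8 between -0.16 and 0.12. The effect in BAT minus the mean of the white depots called 0 of the 10 and 0% of all genes, where 235 higher and 516 lower genes had an unadjusted p under 0.05 (limma). It was -0.46 for Plin5 (-1.15 to 0.23), -0.38 for Plin2 (-0.88 to 0.12) and -0.32 for Lipe (-0.70 to 0.05). Both signs occurred, since of the 10 genes 4 were positive and 6 negative, with a median of -0.013.

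The wider machinery of lipolysis was read from 6 lists, chosen with earlier results of these data known. No gene of any list was called between genotype labels in a depot. Among other droplet proteins Cidea, the brown fat relative of Cidec, was nearest a call in eWAT (1.09, adjusted p = 0.308) and in iWAT (0.75, adjusted p = 0.349). In BAT the difference of Cidea had the opposite sign (-0.43, adjusted p = 0.452, limma). Among other lipases Pnpla3, a close relative of Pnpla2, was nearest a call, at -1.48 in BAT (adjusted p = 0.198), -0.92 in iWAT (adjusted p = 0.131) and -0.66 in eWAT (adjusted p = 0.364, limma). Of the genes that handle lipolytic products, Aqp7, the glycerol channel of adipocytes, was at 0.59 in iWAT and 0.51 in eWAT, and the fatty acid binding protein gene Fabp5 was at -1.07 in BAT. Of the receptors and kinases of the adrenergic arm, Adrb1 was at 0.49 in iWAT. Npr1, the natriuretic peptide receptor, was at 0.80 in BAT. It is not an adrenergic gene but stood in that list and is counted with the adrenergic genes below.

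Between BAT and eWAT, where 80.6% of all genes were called in HuR-FKO and 76.9% in Ctrl, the list counts are read against those shares, and nothing particular to the lists is taken from them. Of 14 other droplet proteins tested in BAT minus eWAT, 4 were higher and 10 lower in HuR-FKO, and 4 higher and 9 lower in Ctrl. Cidea was higher by 6.31 in HuR-FKO and 7.83 in Ctrl and Fitm1, a droplet budding protein of muscle and brown fat, by 1.80 and 3.10. Skeletal muscle markers summed to 1431 to 1547 FPKM in HuR-FKO BAT, 2509 to 4306 in Ctrl BAT and 27.8 or below in eWAT. The part of muscle in the Fitm1 differences was not tested. The caveolar coat genes Cav1 (-1.98 in HuR-FKO and -1.85 in Ctrl) and Cavin1 (-1.87 and -1.99) were lower. Cidea and its relative Cidec, in the set, thus ran in opposite directions between these depots.

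The adrenergic arm, which turns lipolysis on, had 6 higher and 10 lower of 18 genes in HuR-FKO BAT minus eWAT, and 4 and 10 in Ctrl. Gnas, the stimulatory G protein, differed by 3.51 in HuR-FKO and 3.09 in Ctrl and the cyclase Adcy3 by 2.43 and 2.17, whereas the cyclase Adcy5 differed by -3.38 and -3.46. Of the antilipolytic arm, 2 genes were higher and 11 lower of 16 in each set. The cAMP phosphodiesterase Pde4d was higher by 2.93 in HuR-FKO and 2.96 in Ctrl, and the inhibitory G protein Gnai1 differed by -3.32 and -2.93. In both arms single members thus moved in opposite directions. Median differences of the 2 arms were -0.56 and -0.75 in HuR-FKO and -0.53 and -0.75 in Ctrl, near the all-gene medians.

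Other lipases had 1 higher and 7 lower of 12 in HuR-FKO BAT minus eWAT, and 3 and 5 in Ctrl, with Lpl, which frees fatty acids from circulating lipoproteins, at -1.71 and -1.58. Of 9 genes that handle the products, 2 were higher and 5 lower in HuR-FKO, and 2 and 2 in Ctrl. The acyl-CoA synthetase gene Acsl5 (2.67 in HuR-FKO and 2.57 in Ctrl) and Gk, the glycerol kinase that returns glycerol to triglyceride (2.12 and 2.09), were the higher ones. Of 12 transcription factors that control lipase genes, 4 were higher and 4 lower in each set, led by Ppara (3.06 and 2.78) and the coactivator Ppargc1a (2.02 and 2.24), with Rxra at -1.97 and -1.67.

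In BAT minus iWAT, where 78.7% of all genes were called in HuR-FKO and 75.9% in Ctrl, the calls were 4 higher and 7 lower of 14 droplet proteins in HuR-FKO and 4 and 7 in Ctrl, 2 and 5 of 11 lipases in HuR-FKO and 2 and 4 in Ctrl, and 6 and 11 of 18 adrenergic genes in HuR-FKO and 6 and 10 in Ctrl. They were 2 and 9 of 16 antilipolytic genes in HuR-FKO and 2 and 10 in Ctrl, 3 and 2 of 9 product genes in HuR-FKO and 2 and 0 in Ctrl, and 4 and 4 of 12 transcription factors in HuR-FKO and 4 and 5 in Ctrl. Cidea (2.33 and 3.51), Gnas (3.48 and 3.23) and Acsl5 (1.83 and 2.18) were again among the higher ones, and Adcy5 (-2.37 and -2.65) among the lower.

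In iWAT minus eWAT fewer list genes were called, as fewer of all genes were (30.2% in HuR-FKO and 28.5% in Ctrl). Cidea (3.98 in HuR-FKO and 4.31 in Ctrl), Ppara (0.92 and 0.85) and Pde4d (1.36 and 1.15) were higher, and the adipocyte beta receptor gene Adrb3 (-1.63 and -1.79), Cav1 (-1.22 and -1.10), Aqp7 (-0.69 and -0.76), Lpl (-0.76 and -0.77) and Gnai1 (-1.41 and -1.06) were lower. The counts of higher and lower calls were 1 and 6 of 13 droplet proteins in HuR-FKO and 1 and 5 in Ctrl, 1 and 2 of 12 lipases in HuR-FKO and 0 and 2 in Ctrl, and 2 and 5 of 18 adrenergic genes in HuR-FKO and 1 and 4 in Ctrl. They were 2 and 1 of 16 antilipolytic genes in HuR-FKO and 3 and 1 in Ctrl, 2 and 2 of 9 product genes in HuR-FKO and 1 and 3 in Ctrl, and 2 and 3 of 12 transcription factors in HuR-FKO and 3 and 3 in Ctrl.

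For Plin2 and Plin5, the coats that were higher in BAT, 29 bases of each promoter around a motif match are shown, read from RefSeq promoter windows (GRCm38.p6) 5′ to 3′ on the minus strand. They lie upstream of the annotated genes at chr4:86670264-86670292 and chr17:56117701-56117729, and the capitals mark the match.
Plin2: agctttcaGGACCCCTGACCTaagtcaga
Plin5: gtcctagtctgAGGTCAgccatggtgact
Searched on both strands were 9 motifs in 14 windows of the 10 genes, each from 250 bases before to 50 after a start. DR1, a repeat bound by PPAR and RXR and searched as 2 copies of AGGTCA with 1 base between them and up to 2 mismatches, stood in the window of Plin2, on the opposite strand, and in no window of the other 9 genes. It stood in 3.86% of all 32851 windows. AGGTCA, which overlaps it, stood in 3 of the genes (Plin2, Plin5 and Abhd5) and in 16.3% of windows. CACGTG, the E-box, stood in 3 genes (Plin2, Mgll and Lipe) against 7.15% of windows, GGGCGG in 7 against 35.7%, CCAAT in 3 against 37.4% and TGACG in 3 against 20.8%. TATAAA (13.6% of windows), TGACGTCA (1.79%), which holds TGACG, and TTGCGCAA (0.183%) stood in 0 of the 10. The counts are of genes, and Mgll, Lipe, Cidec and Plin5 had more than 1 window each, whereas the shares are of single windows. Counts and shares are thus not in the same unit, and no enrichment is read from them. These letters are a description of short windows and were not tied to any difference above.

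The genes most like each member were taken as those with the highest Pearson's r of log2(FPKM + 1) over the 16 libraries among 12356 genes, and most of each r comes from the depots. Plin5 was nearest to Idh3g, Slc25a20 (both r = 0.99) and Eci1 (0.98), genes of mitochondrial oxidation. Plin4 was nearest to Sema5a, Sptbn1 and Adipoq (0.99 each), and Cidec to Pygb, Napepld and Cd36 (0.97 each). Plin1 and Mgll were nearest to each other (0.98), Plin1 also to Cav1 (0.97) and Mgll also to Slc5a6 and Bcl2l2 (0.98 each). Plin2 was nearest to Sorcs2, Chchd10 and Agpat2 (0.93, 0.93 and 0.92).

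The lipase genes had other neighbours. Lipe was nearest to Pxmp4 and Gm5460 (0.98 each), Abhd5 to Vps35, Ubl3 (0.98 each) and Ntng2 (0.97), and Pnpla2 to Mettl7a1 (0.92), Pon3 (0.88) and Ces1d (0.87), a lipase of the endoplasmic reticulum. G0s2 was nearest to Tada2b (0.90), Pgpep1 (0.83) and Camsap3 (0.82). After group means were removed, r stayed at 0.94 for Pnpla2 with Mettl7a1 and 0.84 with Ces1d, and fell to 0.63 for Plin5 with Idh3g. All libraries of a depot share tissue and processing, so these are descriptions with no test.

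Overlap on the genome makes 5 of the 10 genes less certain (GENCODE vM21, mm10). Lipe (chr7:25379527-25398710, minus strand), Abhd5 (chr9:122351608-122381524, plus) and Mgll (chr6:88724412-88828360, plus) overlap antisense genes, and G0s2 (chr1:193272161-193273217, minus) and Plin4 (chr17:56100591-56109803, minus) overlap the coding genes Lamb3 and Hdgfl2 on the other strand. Mgll also overlaps Gm43999, Gm44001 and Gm44005 on its own strand, which strand cannot tell apart. The libraries were strand-specific, but the strand setting of the quantification is not given in the sources used here. Pnpla2 (chr7:141455198-141460743, plus), Plin1 (chr7:79720218-79732903, minus), Plin2 (chr4:86648386-86670060, minus), Plin5 (chr17:56111601-56117596, minus) and Cidec (chr6:113424634-113435760, minus) overlap no other annotated gene. The table places the ends of G0s2, Plin1 and Plin4 differently from this annotation.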

How the data were processed

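RNA of 3 mice was pooled per library, made into strand-specific libraries and sequenced in paired ends. The authors aligned reads to mm10 with TopHat2 2.0.11 and computed FPKM per gene with Cufflinks 2.1.1, and these FPKM values were deposited without counts. The annotation release is not given in the sources used here. Between 45.0% and 79.9% of low values were whole multiples of 1 fragment (within 0.05 on the log2 scale, at an assumed fragment length of 200 bases), so reads were not recovered and depth is only an estimate.

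Here log2(FPKM + 1) was tested with limma 3.58.1 (R 4.3.3, lmFit and eBayes with trend, two-sided) over protein-coding genes whose mean exceeded 1 FPKM in any group compared, with Benjamini-Hochberg adjustment and a threshold of 0.05. A fold on this scale understates changes of low genes. Genotype fits were made per depot, depot fits over the 8 libraries of a genotype label, and the interactions in fits across depots. "Called" means an adjusted p under 0.05. The code was tested on simulated data. Nothing in the labels says how the pools of a group were kept apart, so p-values measure the spread between these libraries.

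The genes, lists, markers and tests were chosen with earlier results of these data known. By rule, all members were named, the 3 genes most like each, and of each list up to 4 called genes with the largest differences or, with none called, the 2 with the smallest p. Not every gene so eligible is printed, and 1 muscle marker is not reported here. Same-numbered Ctrl iWAT and eWAT libraries deviated together (r of 0.258, 0.292 and 0.211), against -0.175 to -0.086 for different numbers. A pairing there was read from these data and not from the labels. Libraries of different genotype labels reached higher values without shared mice. These were 0.400 for HuR-FKO and Ctrl iWAT replicate 3, and 0.359 for HuR-FKO iWAT replicate 1 with Ctrl iWAT replicate 2. Pairing was thus not shown, and the blocked values rest on it. The printed results come from the fit without the block, as the design set, and the blocked values stand beside those it changed. Alternatives were another pseudocount (0.1), no minimum, 2 other scalings, all genes of the table, no trend, the replicate block, 1 fit of all 16 libraries, and leaving out each library. Every column of values was used.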

Additional observations from a re-analysis of the deposited data

Results flagged for a closer look

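Elovl3, which lengthens fatty acids in brown fat and is no member of the set, was the 1 gene called in the interaction of genotype and white depot, and was named after its values were seen. It had 10.4, 14.2 and 15.8 FPKM in HuR-FKO iWAT, against 1.83, 1.24 and 1.88 in Ctrl iWAT, and 0, 0.303 and 0.200 in HuR-FKO eWAT, against 0.0428, 0.134 and 0 in Ctrl eWAT. The genotype effect in iWAT exceeded that in eWAT by 2.30 ± 0.25 (SE) on the log2(FPKM + 1) scale, with an adjusted p of 0.00895 (limma). Elovl3 is 1 of the 7 brown adipocyte markers whose levels are given beside the Plin5 difference in iWAT, and what the difference comes from was not tested.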

How the results depend on the processing

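No gene of the set was called between genotypes or in an interaction under any alternative (830 values, lowest adjusted p 0.166), and 78 of these changed sign. Of 43 called depot differences 22 kept their call throughout, and 615 of 688 alternative values did. The cause of a changed value was not tested unless stated. FPKM without counts limits what can be said of low genes such as Plin5 in white fat, and 2 BAT libraries per group limit that depot.

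Genes called between genotypes in eWAT (5) were 2 with no minimum, 3 without trend, 0 with the replicate block and 28 with all 16 libraries. In iWAT (5) they were 3 with a pseudocount of 0.1, 2 with no minimum, 3 with median-ratio scaling, 10 over all genes of the table, 0 with the block and 37 with all 16. In BAT (0) they were 14 with no minimum, 6 over all genes, 46 with the block and 71 with all 16. The iWAT minus eWAT interaction (1) called 0 with a pseudocount of 0.1, 6 with no minimum, 5 over all genes and 2 with all 16. The BAT interaction (0) called 4 with a pseudocount of 0.1, 20 with no minimum, 8 with median-ratio scaling, 4 with equal nuclear sums, 9 over all genes and 3 without trend. Members called in HuR-FKO were 4 (not 7) for BAT minus iWAT with equal nuclear sums and 4 (not 8) for iWAT minus eWAT with no minimum. Of all genes, the main fits of these comparisons called 78.7% and 30.2%. The shares under these settings are not printed, so nothing particular to the set is taken from these counts.

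Signs changed under median-ratio scaling in the genotype difference of Plin1 in BAT (0.052) and in the interactions of Abhd5 in iWAT (0.0062) and of Abhd5 (0.033) and Cidec (0.026) in BAT. They also changed in BAT minus eWAT for Pnpla2 (0.52 in HuR-FKO and 0.35 in Ctrl), in BAT minus iWAT in HuR-FKO for Lipe (0.31), Mgll (0.43), Abhd5 (0.013) and Plin1 (0.15), and in Ctrl for Lipe (0.65), Mgll (0.32) and Plin1 (0.35). With equal nuclear sums they changed for Plin1 (0.089) and Plin5 (0.036) between genotypes in BAT, in the interactions of Mgll in iWAT (-0.0044) and of Abhd5 (0.085) and Cidec (0.079) in BAT, and for Pnpla2 in BAT minus eWAT in HuR-FKO (0.17), Mgll in BAT minus iWAT in HuR-FKO (0.059) and Lipe in Ctrl (0.23).

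With the replicate number as a block, libraries that share no known animals gained calls in HuR-FKO for G0s2 (0.53 for BAT minus eWAT and 0.63 for BAT minus iWAT) and Pnpla2 (0.42 for BAT minus iWAT and -0.46 for iWAT minus eWAT), and in Ctrl for Mgll in BAT minus iWAT (-0.39).

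Leaving out 1 library gave 1 to 6 genes called in eWAT, 0 to 5 in iWAT, 0 to 136 in BAT (136 without Ctrl BAT replicate 2), 0 to 2 and 0 to 22 in the interactions of iWAT and BAT, and for iWAT minus eWAT 2382 to 4260 in HuR-FKO (3891) and 2414 to 4018 in Ctrl (3674). Members called in BAT minus iWAT were 4 to 8 in HuR-FKO and 3 to 7 in Ctrl. The main fits called 78.7% and 75.9% of all genes there, and the shares without 1 library are not printed. Genotype differences that changed sign ranged in eWAT from -0.12 to 0.28 for Pnpla2, -0.22 to 0.0093 for Abhd5, -0.59 to 0.11 for G0s2, -0.082 to 0.12 for Plin4, -0.076 to 0.38 for Plin5 and -0.021 to 0.34 for Cidec. In iWAT they ranged from -0.042 to 0.28 for Pnpla2, -0.13 to 0.48 for G0s2 and -0.035 to 0.36 for Cidec. In BAT they ranged from -0.23 to 0.0082 for Lipe, -0.37 to 0.14 for Abhd5, -0.039 to 0.033 for Plin1, -0.29 to 0.026 for Plin2, -0.19 to 0.081 for Plin5 and -0.24 to 0.63 for Cidec. The iWAT interaction ranged from -0.15 to 0.29 for Pnpla2, -0.018 to 0.22 for Lipe, -0.11 to 0.090 for Mgll, -0.12 to 0.11 for Abhd5, -0.12 to 0.15 for Plin1, -0.25 to 0.039 for Plin2 and -0.23 to 0.25 for Cidec. The BAT interaction ranged from -0.076 to 0.21 for Pnpla2, -0.014 to 0.14 for Mgll, -0.26 to 0.25 for Abhd5 and -0.45 to 0.42 for Cidec. Lipe in BAT minus iWAT ranged from -0.15 to 0.089 in Ctrl, and G0s2 in iWAT minus eWAT from -0.45 to 0.25 in HuR-FKO.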
